A study of Mus musculus with 8 samples.

Results

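The genes described here are the nuclear-encoded subunits of oxidative phosphorylation (OXPHOS), the set of inner mitochondrial membrane complexes that turn oxidised fuel into ATP. They were taken by symbol from the protein-coding rows of the gene table, as 96 of its 23045 genes. They comprise 37 genes of complex I, 4 of complex II, 9 of complex III, 20 of complex IV, 17 of complex V and the cytochrome c gene Cycs. The pattern also took in 8 Ndufaf genes, which encode assembly factors of complex I and not subunits, and these were kept as a group of their own. Ndufa4 and Ndufa4l2 were counted with complex IV, where the NDUFA4 protein resides. The complex IV genes also include Cox5b-ps, which the table lists as protein-coding but whose symbol is that of a pseudogene.

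RNA of mouse hearts was sequenced from 8 libraries, 4 of them WT and 4 Mettl3 KO. WT stands for Mettl3lox/lox mice without Cre, and Mettl3 KO for Mettl3lox/lox mice that carried αMHC-MerCreMer, a tamoxifen-dependent Cre driven by a promoter of cardiomyocytes. Per the study's methods, mice of both genotypes were aged 10 to 16 weeks and received tamoxifen at 100 µg per g body weight on 7 days in a row. Thus WT mice received tamoxifen but had no Cre, and the deletion was directed at cardiomyocytes and not at the other cells of the heart. METTL3 is the catalytic subunit of the complex that writes N6-methyladenosine (m6A) into RNA. The labels do not say whether the libraries of a genotype came from separate mice, so p-values measure the spread between these libraries, which may be technical.

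Complex I (NADH dehydrogenase) and complex II (succinate dehydrogenase) pass electrons to ubiquinone, complex III passes them on to cytochrome c, and complex IV (cytochrome c oxidase) to oxygen. Protons pumped on the way drive ATP synthase, complex V. The heart relies on this pathway for most of its ATP and packs its cardiomyocytes with mitochondria. Core subunits of all complexes but complex II are encoded by mitochondrial DNA, and the authors removed mitochondrial reads, so 0 mitochondrially encoded genes were in the table.

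Normalized read counts summed to between 2839589 and 2916986 per library, and the members took between 0.885% and 0.945% of them. Mettl3 stood at 105, 133, 118 and 107 normalized reads in WT and at 74, 68, 69 and 78 in Mettl3 KO, 62.4% of WT (log2 fold change -0.67, limma adjusted p = 0.000184). All 12 cardiomyocyte markers were detected, with 0 called higher and 1 called lower, and 11 estimates were above 0 (median 0.057). The 1 called lower was Ryr2, the calcium release channel gene (-0.23, limma adjusted p = 0.000137). Ryr2 was at 9731, 9666, 10427 and 9715 in WT against 9017, 8241, 8494 and 7975 in Mettl3 KO. The markers summed to 96753 to 103569 in WT and 94053 to 105110 in Mettl3 KO, mostly from Ttn, and without Ttn to 28012 to 29468 and 26443 to 29596. Summed fibroblast markers stood at 3648 to 4172 in WT and 4711 to 5671 in Mettl3 KO, with 7 of 8 higher. Endothelial markers stood at 4580 to 4848 in WT and 4002 to 4424 in Mettl3 KO, with 4 of 8 lower. Adipocyte markers were low, at 52 to 67 in WT and 69 to 92 in Mettl3 KO, mostly from Cidea, a gene of brown fat, which was the 1 of 5 called higher (0.44, limma adjusted p = 0.0368). The 4 atrial markers, all higher, summed to 17 to 150 in WT and 146 to 911 in Mettl3 KO, and Bmp10 was at 0 in all WT libraries and in Mettl3 KO replicate 1 but at 195, 158 and 358 in the other Mettl3 KO libraries. Blood cell markers stood at 174 to 285 in WT and 123 to 199 in Mettl3 KO. Of these 5, 0 were called and 0 had an estimate above 0. Skeletal muscle markers stood at 30 to 44 in WT and 28 to 39 in Mettl3 KO. Of these 7, Tnni2 was called lower (-1.60, limma adjusted p = 0.0381), and 4 estimates were above 0. Tnni2 was at 6, 5, 7 and 2 in WT against 1, 0, 2 and 1 in Mettl3 KO. These are few reads, and the genotypes overlapped. Macrophage, lymphocyte, and smooth muscle and pericyte markers had 0 called. The part of these cell types in the results that follow was not tested. In whole heart RNA, more cells of a type and more RNA per cell cannot be told apart.

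Of the 95 members tested, 6 rose in Mettl3 KO and 0 fell at an adjusted p under 0.05 (limma). The 6 are the complex I assembly factors Ndufaf4 and Ndufaf1, the complex I subunit Ndufb8, the Rieske protein gene Uqcrfs1 of complex III, Cox8a of complex IV and Atp5g1 of complex V. This is 6.32% of the members, against 7.91% of all 20313 genes tested, so the share called was near the background. Higher calls alone made up 4.72% of all genes and lower calls 3.19%. At an unadjusted p under 0.05 (limma), 9 members were higher (9.47%, against 10.8% of all genes) and 2 were lower, Ndufa7 and Sdha (2.11%, against 9.79% of all genes). Limma voom also called 0 members lower. Among genes with a mean of at least 10, where 11.0% were called, 6 of 93 members were. The genotypes did not overlap for 10 members, 10.5%, against 11.5% of all genes. Of these, 9 were higher, the 6 called genes with Ndufa6, Ndufa12 and Uqcr10. The 1 lower was Ndufb6, a complex I accessory subunit, at 135, 125, 125 and 126 in WT against 123, 123, 113 and 114 in Mettl3 KO (-0.11, limma adjusted p = 0.509). Over the members, log2 fold changes had a median of 0.03, beside -0.01 over all genes tested. A limma fit of WT against Mettl3 KO replicate 1 alone, the library without Bmp10 reads, called 0 members and 8 genes in all, and 9 of 96 members had an unadjusted p under 0.05 (9.38%, against 14.8% of all genes). This fit was added after seeing the data. With 1 Mettl3 KO library few calls can be made, so these counts do not bear on whether the calls depend on the other libraries.

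**Figure D1:**
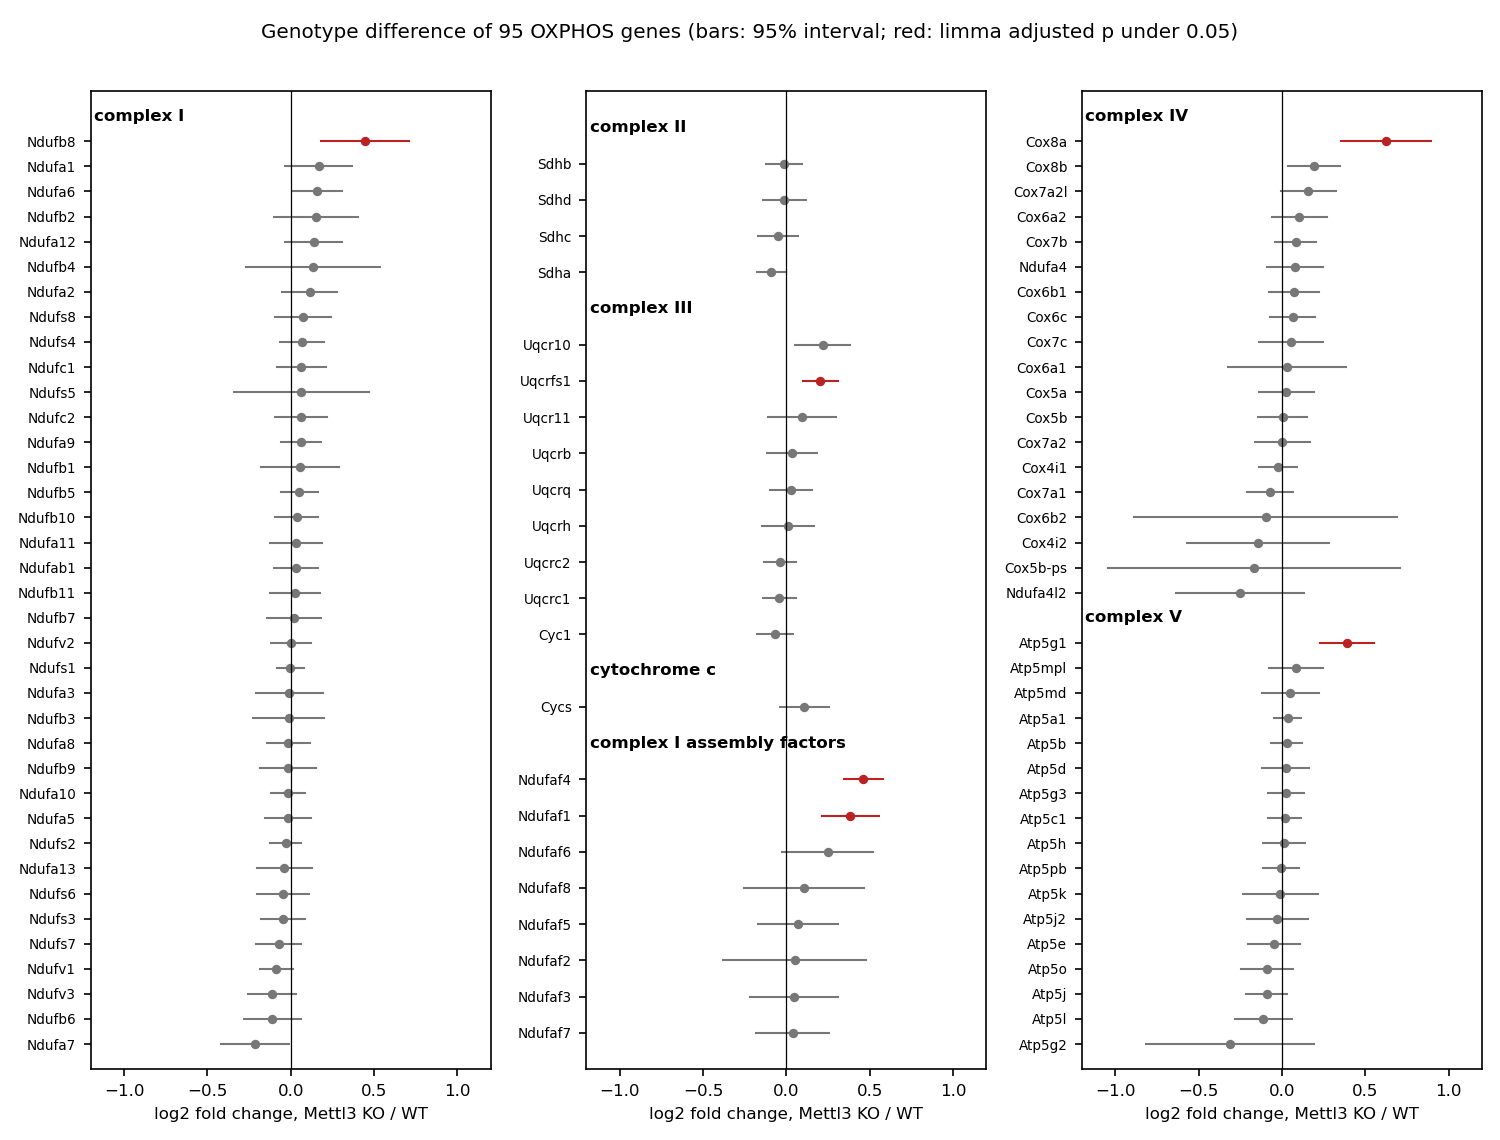
Log2 fold change of Mettl3 KO over WT (horizontal axis, on the log2(value + 1) scale) for the 95 members tested, grouped by complex and ordered by size. Points are estimates, bars 95% intervals, and red marks the 6 genes with a limma adjusted p under 0.05, all to the right of 0.

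In mm39, Ndufaf4 (ENSMUSG00000028261) spans chr4:24898083-24905001, Ndufaf1 (ENSMUSG00000027305) chr2:119485927-119493308 and Ndufb8 (ENSMUSG00000025204) chr19:44537011-44543879. Uqcrfs1 (ENSMUSG00000038462) spans chr13:30724291-30729345, Cox8a (ENSMUSG00000035885) chr19:7192518-7194981 and Atp5g1 (ENSMUSG00000006057) chr11:95959678-95966496. Each of the 6 overlapped 0 other genes of the table on either strand.

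The promoters of genes that rose are shown because nuclear respiratory factors (NRF1, the ETS family factor GABPA) and estrogen-related receptors (ERR) are known regulators of OXPHOS genes. The sequences are the 250 bases before the start of each gene (RefSeq, GRCm38.p6), written 5′ to 3′ along the gene's strand. Ndufaf4 lies at chr4:24897833-24898082 (plus strand), Ndufaf1 at chr2:119662835-119663084 (minus strand), Cox8a at chr19:7217617-7217866 (minus strand) and Atp5g1 at chr11:96075632-96075881 (minus strand). Capitals mark an NRF1 motif on both strands, overlapping itself, in Ndufaf4 and an ETS family motif in Ndufaf1. Cox8a and Atp5g1 hold none of the motifs searched.
Ndufaf4: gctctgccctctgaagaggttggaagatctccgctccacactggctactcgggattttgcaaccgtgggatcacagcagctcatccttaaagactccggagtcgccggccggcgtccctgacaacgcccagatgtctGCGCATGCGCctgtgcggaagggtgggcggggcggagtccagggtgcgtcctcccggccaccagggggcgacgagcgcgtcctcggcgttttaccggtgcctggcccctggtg
Ndufaf1: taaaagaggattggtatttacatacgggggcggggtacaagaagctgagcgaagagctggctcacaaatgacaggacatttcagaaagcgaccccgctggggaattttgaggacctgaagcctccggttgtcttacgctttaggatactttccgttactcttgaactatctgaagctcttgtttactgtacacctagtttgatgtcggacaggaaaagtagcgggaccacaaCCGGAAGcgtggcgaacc
Cox8a: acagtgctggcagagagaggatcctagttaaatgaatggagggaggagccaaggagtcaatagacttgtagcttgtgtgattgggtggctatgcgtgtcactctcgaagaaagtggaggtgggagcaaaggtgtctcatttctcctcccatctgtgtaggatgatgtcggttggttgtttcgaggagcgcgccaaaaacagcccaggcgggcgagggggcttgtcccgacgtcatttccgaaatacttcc
Atp5g1: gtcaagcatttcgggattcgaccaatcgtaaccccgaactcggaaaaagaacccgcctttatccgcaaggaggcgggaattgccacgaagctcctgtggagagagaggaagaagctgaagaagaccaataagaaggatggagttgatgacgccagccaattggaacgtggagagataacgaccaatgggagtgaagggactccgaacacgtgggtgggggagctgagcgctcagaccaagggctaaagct

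Promoters were available for 78 of the 96 members and searched on both strands. The NRF1 letters GCGCATGC occurred in 10 of them (12.8%), against 4.5% of the 11822 protein-coding genes with a promoter, members included. A gene counted if any of its promoters matched. The ETS family letters CCGGAAG occurred in 14 (17.9%, against 13.9%), the ERR letters AAGGTCA in 5 (6.4%, against 3.6%) and the YY1 letters AAGATGGC in 1 (1.3%, against 2.1%). Uqcrfs1 and Ndufb8 held none of these letters. A match describes the sequence and does not show binding. Whether matches differ between members that rose and other members was not tested.

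Of the 8 complex I assembly factors, 2 rose, where 4.72% of all genes tested were called higher. Summed over the 8, normalized counts were 835, 885, 844 and 896 in WT against 1106, 1078, 1093 and 1012 in Mettl3 KO, 124% of WT, and most of this difference came from those 2 genes. The other 6 summed to 319, 356, 345 and 380 in WT against 341, 410, 364 and 371 in Mettl3 KO, 106% of WT. Ndufaf4, an early assembly factor, was at 357, 380, 355 and 368 in WT and at 544, 486, 520 and 466 in Mettl3 KO. Every Mettl3 KO library lay above every WT library (log2 fold change 0.46 ± 0.06 SE, n = 4 per genotype, limma adjusted p = 1.34e-05). Ndufaf1, a chaperone of the complex I membrane arm, was at 159, 149, 144 and 148 in WT. It was at 221, 182, 209 and 175 in Mettl3 KO, again without overlap (0.38 ± 0.08 SE, limma adjusted p = 0.00421). The other 6 (Ndufaf2, Ndufaf3, Ndufaf5, Ndufaf6, Ndufaf7 and Ndufaf8) did not pass, with estimates from 0.04 for Ndufaf7 to 0.25 for Ndufaf6, whose 95% interval ran from -0.03 to 0.52. All 8 estimates were above 0, as were 9789 of the 20313 over all genes tested. Their median was 0.09, and it was 0.02 without Mettl3 KO replicate 2 and 0.19 without Mettl3 KO replicate 1.

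**Figure D2:**
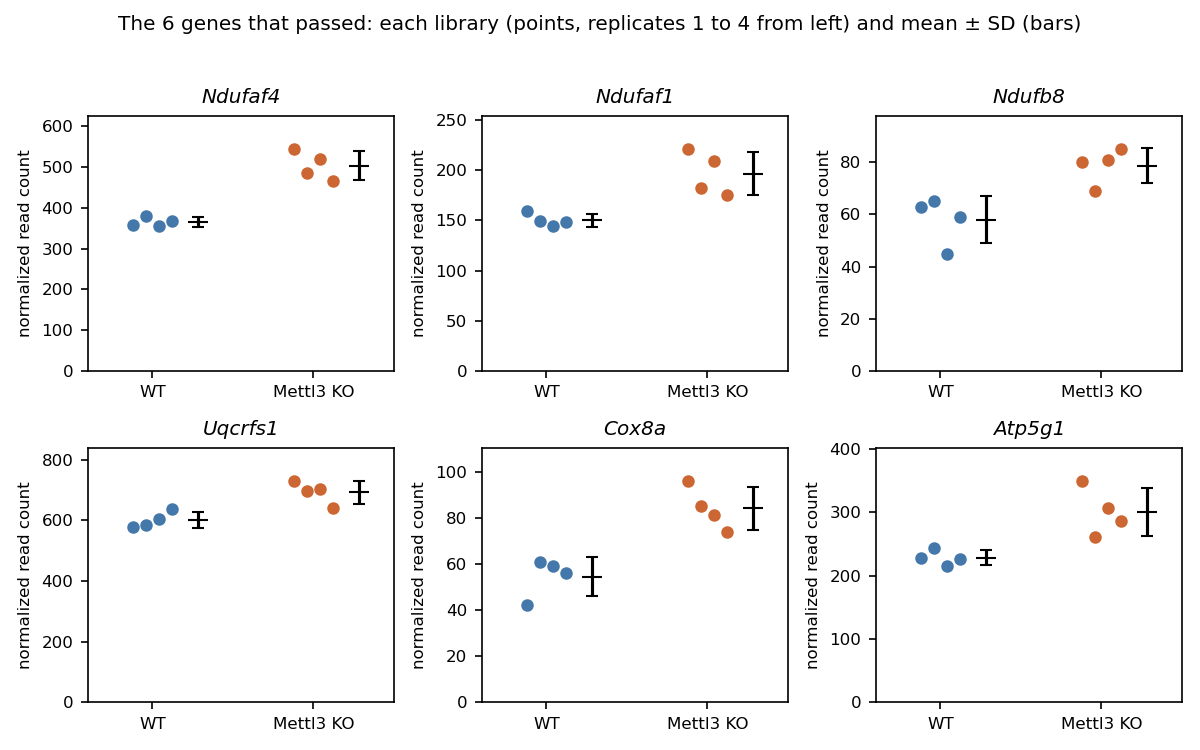
Normalized read counts of the 6 genes that passed the test, in each library (vertical axis from 0, points in the order of replicates 1 to 4) with mean ± SD beside them. No Mettl3 KO library falls among the WT libraries, and Mettl3 KO replicate 1 is the highest library in 5 of the 6 genes, Ndufb8 being the exception.

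Of the 37 complex I subunit genes, 1 rose. Ndufb8, an accessory subunit of the membrane arm, was at 63, 65, 45 and 59 in WT and at 80, 69, 81 and 85 in Mettl3 KO (0.44 ± 0.13 SE, limma adjusted p = 0.0337). It was the least stable of the 6: the adjusted p was 0.0606 with a replicate block, 0.113 without WT replicate 3, 0.0639 without WT replicate 4, and 0.0563, 0.101 and 0.112 without Mettl3 KO replicates 1, 3 and 4. Ndufa7, another accessory subunit, had the lowest estimate (95, 104, 116 and 109 in WT, 83, 92, 89 and 101 in Mettl3 KO, -0.21, adjusted p = 0.218). Ndufs1, the largest core subunit and the complex I gene with the highest mean, was at 1220, 1218, 1247 and 1258 in WT. In Mettl3 KO it was at 1257, 1255, 1269 and 1158, a difference whose 95% interval ran from -0.08 to 0.08. The median of complex I was 0.025, and -0.004 without Mettl3 KO replicate 1, and its summed level in Mettl3 KO was 100.5% of WT.

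None of the 4 succinate dehydrogenase genes passed, and all 4 estimates were below 0 (median -0.031, and -0.057 without Mettl3 KO replicate 3). Over all genes tested, 9789 of 20313 estimates were above 0. Sdha, the flavoprotein with the catalytic site, was at 1268, 1268, 1282 and 1368 in WT and at 1211, 1238, 1277 and 1144 in Mettl3 KO. The libraries overlapped (-0.09, adjusted p = 0.221). Sdhb, the iron-sulphur subunit, differed by -0.01.

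Of the 9 complex III genes, Uqcrfs1 rose. It encodes the Rieske iron-sulphur protein, which passes electrons towards cytochrome c1. Its level was 579, 584, 605 and 637 in WT against 731, 696, 703 and 642 in Mettl3 KO (0.20 ± 0.05 SE, limma adjusted p = 0.0132). The adjusted p was 0.0538, 0.0516 and 0.0533 without WT replicate 1, WT replicate 2 and Mettl3 KO replicate 3. Uqcr10, a small subunit, had the highest estimate of complex III (0.22) and did not overlap between genotypes either (125, 153, 144 and 136 against 166, 162, 164 and 156) but had an adjusted p of 0.106. The core protein gene Uqcrc1 (-0.04) and the cytochrome c1 gene Cyc1 (-0.07) did not pass. The mobile carrier gene Cycs was at 185, 184, 186 and 200 in WT against 218, 212, 198 and 187 in Mettl3 KO (0.11, adjusted p = 0.442).

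Of 19 complex IV genes tested, Cox8a rose. COX8A is the broadly expressed form of a small membrane subunit, of which Cox8b is the form of heart and skeletal muscle. Cox8a was at 42, 61, 59 and 56 in WT against 96, 85, 81 and 74 in Mettl3 KO, the largest estimate among the members (0.62 ± 0.13 SE, limma adjusted p = 0.00347). Cox8b was at 164, 171, 166 and 176 in WT against 195, 205, 202 and 173 in Mettl3 KO (0.19, adjusted p = 0.128). The Cox8b share of the pair's reads was 79.6%, 73.7%, 73.8% and 75.9% in WT against 67.0%, 70.7%, 71.4% and 70.04% in Mettl3 KO. The genotypes did not overlap, and the means were 75.7% ± 2.77 and 69.8% ± 1.93 (SD, n = 4), for which the two-sided exact permutation test gave p = 0.0286. That is the smallest p that 4 against 4 libraries can give, and adjusted over the 4 pairs by Benjamini-Hochberg it was 0.114, which missed the threshold.

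The other 3 isoform pairs overlapped. The share of Cox6a2, the heart and muscle form, differed by 0.82 percentage points (exact permutation p = 0.571), that of Cox7a1 by -1.25 (exact permutation p = 0.429) and that of Cox4i2, a form of hypoxic tissue and lung, by -0.47 (exact permutation p = 0.657). The common form Cox4i1 was at 393, 417, 399 and 405 in WT against 408, 405, 411 and 366 in Mettl3 KO. Ndufa4l2, a paralogue of Ndufa4, had the lowest estimate of complex IV (-0.25, adjusted p = 0.505). Cox7b2 was not tested, with 5, 0, 1 and 0 in WT against 0, 1, 0 and 0 in Mettl3 KO.

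**Figure D3:**
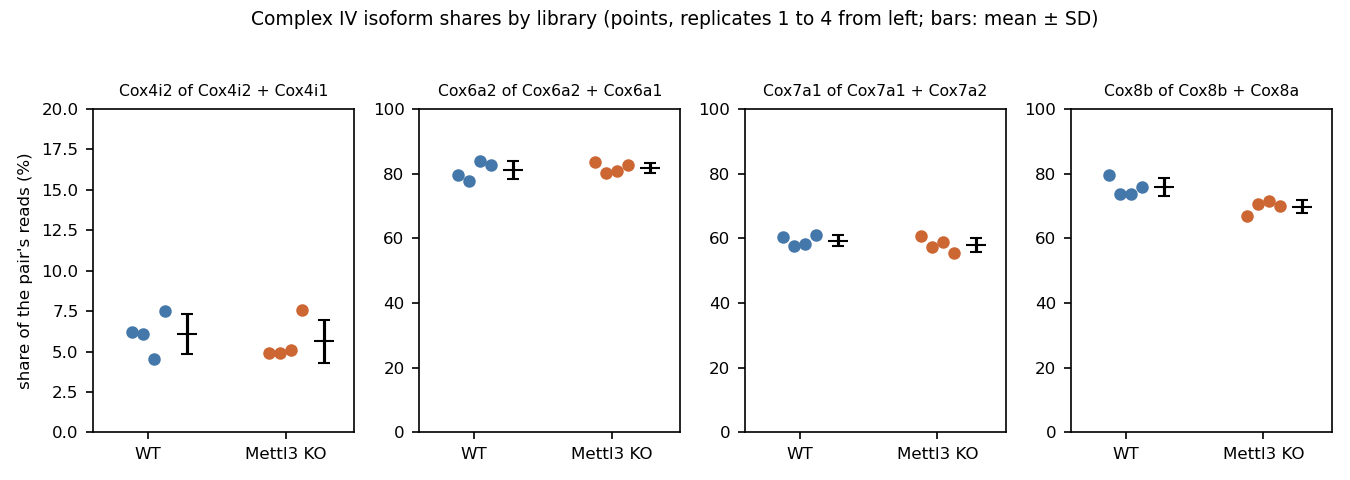
Share of one isoform in the reads of its complex IV pair (vertical axis in percent, from 0, with a shorter axis for Cox4i2) in each library, with mean ± SD. Only the Cox8b share separates the genotypes, from 73.7% upwards in WT and up to 71.4% in Mettl3 KO.

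Of 17 ATP synthase genes, Atp5g1 rose. It is 1 of 3 genes for the c-subunit, which forms the rotor ring and whose mature protein is the same from all of them. Atp5g1 was at 228, 244, 215 and 226 in WT against 350, 261, 307 and 286 in Mettl3 KO (0.39 ± 0.08 SE, limma adjusted p = 0.00213). Atp5g3 was at 397, 383, 390 and 398 against 408, 406, 396 and 382 (0.02, 95% interval -0.09 to 0.13). Atp5g2 was the lowest of the 3, at 24, 23, 13 and 18 against 17, 18, 13 and 13 (-0.31, adjusted p = 0.532). Atp5g1 thus made up 35.7% ± 1.26 of c-subunit reads in WT and 42.0% ± 2.94 in Mettl3 KO (SD, n = 4), given without a test. The annotated principal transcripts of Atp5g1 range from 596 to 4715 bases, and a gene-level count cannot tell more molecules from longer ones.

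The other ATP synthase genes did not pass. Atp5a1, the α-subunit gene with the highest mean of all members, was at 1570, 1560, 1555 and 1626 in WT against 1686, 1598, 1658 and 1521 in Mettl3 KO (0.03, adjusted p = 0.711). Per kilobase of the longest principal transcript, WT levels were 715 normalized reads for Atp5b and 639 for Atp5a1. The inhibitor gene Atpif1, outside the symbol pattern, stood at 99.1% of WT (-0.01, adjusted p = 0.954).

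Summed by complex, Mettl3 KO stood at 100.5% of WT for complex I, 96.0% for II, 102% for III, 104% for IV and 102% for V. Mettl3 KO replicate 4 was the lowest Mettl3 KO library in each, at 94.1% of the WT mean for complex I, while replicates 1 to 3 lay between 101% and 104% there. Of the 89 members that did not pass, the 95% interval of the log2 fold change lay within ±0.2 for 39, within ±0.3 for 68 and within ±0.5 for 82. The 7 beyond ±0.5 (Ndufa4l2, Ndufb4, Cox6b2, Atp5g2, Cox5b-ps, Ndufaf6 and Cox4i2) had WT means of 3.0 to 44.2.

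**Figure D4:**
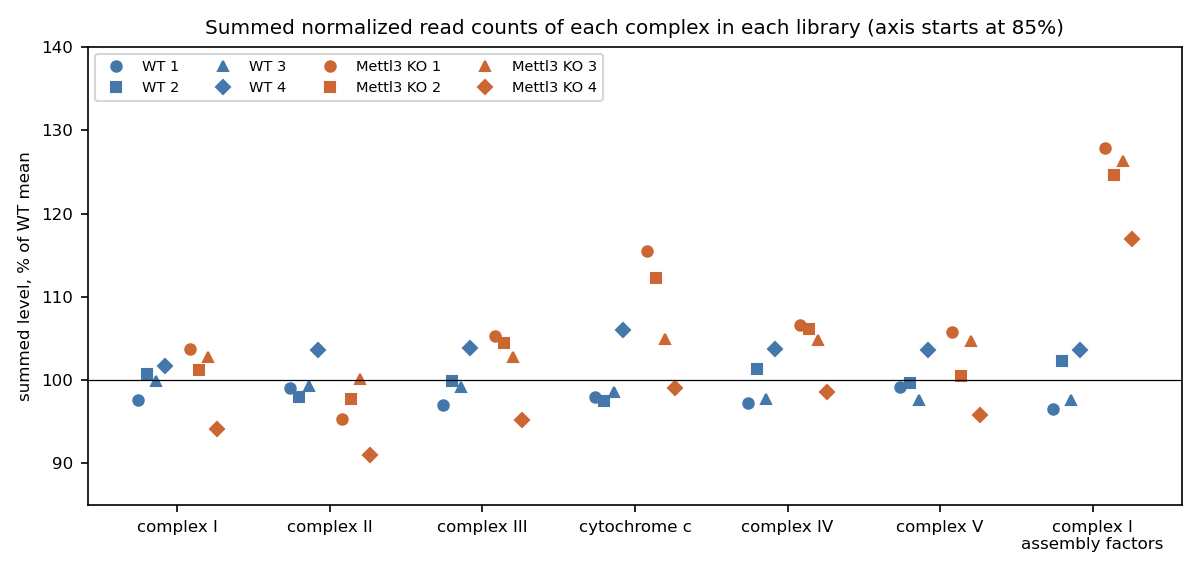
Summed normalized read counts of each complex in each library as a percent of the WT mean (vertical axis from 85%). The assembly factor sums of Mettl3 KO lie at 117% to 128%, above all WT libraries, while the sums of the 5 complexes overlap between genotypes.

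Members had short transcripts, with a median of 865 bases against 2597 over all tested genes with a length. The m6A consensus letters GGACT occurred in the principal transcript of 64.2% of members and 85.3% of all tested genes, and per kilobase the medians were 0.93 and 1.00. Atp5g1 held 8 such sites, Ndufaf4 2, Cox8a 1, Uqcrfs1 1, and Ndufaf1 and Ndufb8 0. These letters show where m6A could lie, and m6A itself was not measured in these libraries.

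Other genes of the pathway were described from lists. The lists of this and the next paragraph were chosen with earlier results of these data known. Their shares beside that of all genes are therefore descriptive and do not test whether a group rose. Of 49 further assembly factors and chaperones tested, 9 rose and 0 fell (18.4% higher, against 4.72% of all genes). Their median was 0.06. Among all genes with a mean of at least 10, 11.0% were called in either direction. Coa6, a copper-handling factor of complex IV, was at 41, 31, 36 and 36 in WT against 72, 63, 58 and 51 in Mettl3 KO (0.74, limma adjusted p = 0.00202). Sdhaf2, which helps to attach flavin to SDHA, was at 263, 268, 279 and 269 against 351, 374, 343 and 338 (0.38, adjusted p = 0.000172). The others were Sdhaf3 (0.59), Uqcc3 (0.58), Cmc1 (0.57), Higd1a (0.52), Cox19 (0.41), Coa3 (0.41) and Taco1 (0.30). Coa3 lost the call in 7 of the 8 fits that left out 1 library, and also with equal library totals (limma adjusted p = 0.0513), quantile normalization (0.0505), limma voom (0.0542) and the replicate block (0.0836). Cox19 lost it in 4 of the 8 and with the replicate block (0.0544), Uqcc3 in 5 and Taco1 in 1.

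Another list of 21 genes held transcription regulators of the respiratory chain. It also held factors of mitochondrial DNA and its expression, such as Polg, Polg2, Twnk and Mterf4. Of these 21, 6 rose and 0 fell (28.6% higher, against 4.72% of all genes). Their median was 0.09. Among all genes with a mean of at least 10, 11.0% were called in either direction. Esrrb was at 171, 187, 165 and 164 in WT against 246, 224, 269 and 247 in Mettl3 KO (0.52, limma adjusted p = 7.58e-05). Perm1, a muscle regulator that acts with the ERR factors, was at 959, 996, 999 and 938 against 1249, 1169, 1223 and 1094 (0.28, adjusted p = 0.000273). Mterf4 (0.46), Tfam (0.24), Esrrg (0.23) and Yy1 (0.22) also rose, of which Tfam lost the call in 5 and Yy1 in 1 of the 8 fits that left out 1 library. The coactivator gene Ppargc1a differed by -0.00 (adjusted p = 0.98), Esrra by -0.03 and Nrf1 by 0.13, and these did not pass. A further list of 32 genes held those of the mitochondrial outer membrane and protein import. It also held genes of other mitochondrial roles, such as Cs, Opa1, Immt and Hspd1. Of these 32, 4 rose and 0 fell (12.5% higher, against 4.72% of all genes). The 4 that rose were Tomm5 (0.61), Timm17a (0.56), Timm8b (0.43) and Tomm40 (0.27). The number that rose was 1 without Mettl3 KO replicate 2, and 2 without WT replicate 1, WT replicate 4 or Mettl3 KO replicate 3. It was 3 with the replicate block. Tomm40 lost the call in 6, Timm8b in 4, Tomm5 in 3 and Timm17a in 0 of the 8 fits that left out 1 library.

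**Figure D5:**
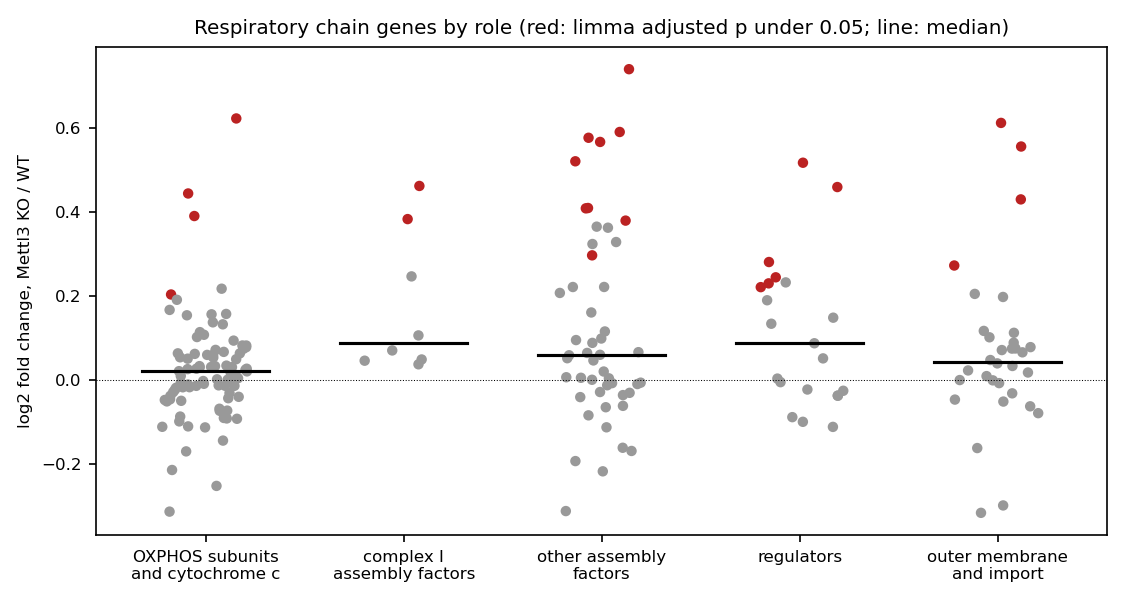
Log2 fold change of Mettl3 KO over WT (vertical axis) for OXPHOS subunits with cytochrome c, complex I assembly factors and 3 lists outside the symbol pattern. Each point is a gene, red has a limma adjusted p under 0.05, and lines are medians, which lie at 0.02, 0.09, 0.06, 0.09 and 0.04 from left to right.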

How the data were processed

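Hearts of 4 WT and 4 Mettl3 KO libraries were measured by stranded single-end RNA-seq of total RNA. Reads had been trimmed (Trimmomatic 0.39), mapped to mm39 (STAR 2.7.11a) and freed of duplicates (Picard 3.1.1) and of multi-mapping, ribosomal and mitochondrial reads by the authors, who then counted exonic reads by strand (featureCounts 2.0.4). Duplicate removal lowers short, abundant transcripts, and the loss of multi-mapping reads lowers genes with near-identical copies: 6 rows listed as processed pseudogenes carry member names, of which Ndufs5-ps (19 to 26) was as high as Ndufs5. What was deposited is a score: the authors divided counts by size factors (DESeq2 1.36.0) and rounded them, so these are not raw counts. The low values allowed each library's reads to be estimated, at 2631175 to 3062294, where 3 reads correspond to 0.98 to 1.14 CPM.

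The 20313 genes with a mean of at least 1 entered a limma 3.58.1 model (R 4.3.3) of log2(value + 1) on genotype alone, whose variance prior followed the mean. P-values were two-sided and adjusted by Benjamini-Hochberg over all genes. Fold changes on this scale understate those of low genes. Isoform shares were compared by exact permutation in Python 3.11.15. Both steps were tested on simulated data. Members and lists were chosen with earlier results of these data known. Named were members that passed, the extremes and the highest mean of each complex, isoform and c-subunit genes, Atpif1, untested members, Mettl3 and called list genes. Others (Ndufa6, Ndufa12, Ndufb6, Ppargc1a, Esrra, Nrf1 and Bmp10 among them) were chosen after their values were seen.

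Alternatives were 12 other settings, 8 fits that left out 1 library each, and 1 fit added after seeing the data, 21 in all. Transcript lengths came from an annotation of an earlier build, matched by gene ID for 96.2% of tested genes.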

Additional observations from a re-analysis of the deposited data

Results flagged for a closer look

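The lowest or highest library stood far from the other 3 in 7 of the 66 groups searched, by Dixon's 95% criterion for the gap as a share of the range. Chance would give about 3.3. In Mettl3 KO this was Cox4i1 (gap 0.867 of the range), Cox4i2 (0.889), Ndufs1 (0.874) and Sdhb (0.957), each with replicate 4 as the odd library, and Cox7b2 (1.0), which was at 1 in 1 library and at 0 in the others. In WT it was Cycs (0.875) and Sdha (0.86), each with replicate 4 highest.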

How the results depend on the processing

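One fit was added after seeing the data: the 4 WT libraries against Mettl3 KO replicate 1 alone, the Mettl3 KO library with no Bmp10 reads. It called 8 genes in all and 0 members, and 0 in each of the 3 lists outside the symbol pattern. With 1 Mettl3 KO library the fit assumes that it varies like WT and can make few calls. The log2 fold changes there were 0.57 for Ndufaf4 (limma adjusted p = 0.0697), 0.62 for Atp5g1 (0.0882), 0.56 for Ndufaf1 (0.104), 0.28 for Uqcrfs1 (0.176), 0.82 for Cox8a (0.213) and 0.47 for Ndufb8 (0.393). Over all 21 alternatives, adjusted p ranged from 1.6e-06 to 0.0697 for Ndufaf4, 0.000824 to 0.0882 for Atp5g1, 0.00246 to 0.104 for Ndufaf1, 0.00199 to 0.213 for Cox8a, 0.00749 to 0.176 for Uqcrfs1 and 0.0263 to 0.393 for Ndufb8. Ndufaf4, Atp5g1, Ndufaf1 and Cox8a passed in 20 of 21, Uqcrfs1 in 17 and Ndufb8 in 14.

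Some estimates that were not called changed sign. With replicate 1 alone these were Cox4i1 (0.016), Cox6a1 (-0.164), Cox7a2 (-0.075), Cyc1 (0.006), Ndufa4l2 (0.081), Ndufaf7 (-0.136), Ndufs1 (0.025), Sdhb (0.02) and Uqcrc1 (0.052). Cox7a1 rounded to 0 there. Cox7a2 was -0.009 with equal library totals, -0.008 with quantile normalization and -0.01 with limma voom. Ndufs1 was 0.005 with TMM scaling and 0.002 with a length offset, with or without the replicate block. The cause was not tested.

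Leaving out 1 library in turn gave 1019 (without Mettl3 KO replicate 3) to 1596 called genes and 4 to 6 members, with 0 lower. The median over all members ranged from 0.011 to 0.046. The assembly factor median ranged from 0.018 to 0.193, the highest without Mettl3 KO replicate 1. The medians ranged from -0.004 to 0.036 for complex I, from -0.057 to -0.021 for complex II, from 0.008 to 0.062 for complex III, from 0.003 to 0.052 for complex IV and from -0.012 to 0.047 for complex V, so those of I and V changed sign. The list of outer membrane, import and other mitochondrial genes had 1 to 3 calls. The isoform share difference ranged from -1.123 to 0.01 percentage points for Cox4i2 and from -0.231 to 1.818 for Cox6a2. It ranged from -2.085 to -0.416 for Cox7a1 and from -6.638 to -4.669 for Cox8b. Log2 fold changes ranged from -0.039 to 0.016 for Cox4i1, from -0.069 to 0.157 for Cox6a1 and from -0.034 to 0.037 for Cox7a2. They ranged from -0.036 to 0.096 for Ndufaf7, from -0.015 to 0.029 for Ndufs1 and from -0.033 to 0.022 for Sdhb. Without a change of sign they ranged from -0.074 to -0.007 for Uqcrc1, -0.093 to -0.03 for Cyc1 and -0.363 to -0.139 for Ndufa4l2. The same held for Atp5g2 (-0.484 to -0.205), Atp5g3 (0.009 to 0.041) and Atp5a1 (0.013 to 0.062).

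Replicate numbers did not pair the libraries (correlations of deviations 0.067, 0.034, -0.024 and 0.062). With the replicate block, 1346 genes and 5 members were called, Ndufb8 being lost. Low members such as Cox6b2 and Cox5b-ps had WT means of 5.0 and 3.0. At these depths counting may limit them, which was not tested.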
